A study of Mus musculus with 27 samples.

Results

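Conventionally housed Il10-/- mice were compared with conventionally housed wild-type mice at 7 weeks after birth, the youngest age in the study. The comparison holds 6 of the 27 arrays of the series: the 3 titled 7CC, read as conventional knockouts, against the 3 titled 7WT. All 18193 genes with a probe set of their own were tested. Each gene was represented by 1 probe set, the one with a single gene symbol and the highest mean over all 27 arrays.

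Interleukin 10 is a cytokine that restrains the response of macrophages and T cells to gut bacteria. Mice without it develop colitis when they carry an ordinary gut flora, and develop less or none when housed under specific pathogen free (SPF) conditions. The study sampled full-thickness colon, which holds the mucosa and the muscle wall. At 7, 9 and 12 weeks it took 3 arrays each of Il10-/- mice under conventional conditions, Il10-/- mice under SPF conditions and wild types under conventional conditions. For each age and kind the authors picked 3 replicates by colon length and colonic damage, so the arrays are not a random draw. The labels give no sex, strain, allele or time of day of collection, and leave it unsaid whether each sample is a single animal or a pool. No wild types under SPF conditions were analysed here. The letters CC are not spelled out in the labels and were assigned to the conventional knockouts because SPF and WT name the other kinds. Where the labels do not say that replicates are separate animals, p-values measure only the spread between these samples.

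The 6 arrays were alike in overall signal. Their median log2 value lay between 4.96 and 4.98, and the Spearman correlation between any 2 of them was between 0.989 and 0.994 over all genes. The actin probe sets at the 3' and 5' ends differed by 0.498 to 0.716 on the log2 scale. Colonic epithelium was measured with 15 markers, of which 0 passed the test in either direction at 7 weeks (0 at an unadjusted p under 0.05, median difference 0.03). Wild-type replicates stood apart in genes of other organs. The mean over 12 pancreatic acinar genes was 5.41 to 5.52 in conventional knockouts, against 5.50 to 7.92 in wild types, with replicate 1 the highest. The Alb probe set, for the main protein made by liver, read 4.18, 6.21 and 4.76 in conventional knockouts, against 10.40, 9.15 and 4.65 in wild types.

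The body clock runs in nearly every cell as a feedback loop. ARNTL pairs with CLOCK or NPAS2 and binds E-boxes to switch on the Per, Cry, Nr1d, Dbp, Tef and Ciart genes. PER and CRY proteins then block ARNTL, while NR1D1 and NR1D2 repress Arntl, Npas2, Cry1 and Nfil3 through RORE elements. DBP, TEF and HLF activate genes through D-boxes, and NFIL3 represses the same sites, so that genes of the ARNTL phase and of the DBP phase peak at opposite times of day. In colon, clock genes are rhythmic in epithelium and muscle. Promoter windows of RefSeq genes (assembly GRCm38.p6, 250 bases before to 50 bases after the start of transcription) were searched on both strands for these elements. The letters were CACGTG for the E-box, TTATGTAA, TTATGCAA or TTACGTAA for the D-box, and AGGTCA for the core of the RORE. E2F sites were TTTCCCGC, TTTGGCGC or TTTCGCGC, where E2F factors act at genes of DNA replication.

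The windows below are examples picked because they hold a match, from genes that moved in opposite directions in the knockouts, with the match in capitals. Ciart, Tef and Per3 were lower in conventional knockouts, while Nfil3, Pola1 and Dtl were higher. Ciart, on the minus strand of chr3:95882179-95882478, held 3 E-boxes. Tef, on the plus strand of chr15:81802423-81802722, held 1 E-box, and Per3, on the minus strand of chr4:151044616-151044915, held 2 D-boxes. Nfil3, on the minus strand of chr13:52980990-52981289, held 1 RORE core, read as TGACCT on the printed strand. The windows of Pola1, on the minus strand of chrX:93632106-93632405, and of Dtl, on the minus strand of chr1:191575495-191575794, held 1 E2F site each.
Ciart: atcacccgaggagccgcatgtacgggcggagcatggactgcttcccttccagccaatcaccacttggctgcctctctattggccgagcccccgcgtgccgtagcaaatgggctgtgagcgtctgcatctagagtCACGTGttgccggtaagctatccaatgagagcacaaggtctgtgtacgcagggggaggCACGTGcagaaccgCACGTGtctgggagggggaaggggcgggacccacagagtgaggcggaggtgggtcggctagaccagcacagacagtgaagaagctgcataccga
Tef: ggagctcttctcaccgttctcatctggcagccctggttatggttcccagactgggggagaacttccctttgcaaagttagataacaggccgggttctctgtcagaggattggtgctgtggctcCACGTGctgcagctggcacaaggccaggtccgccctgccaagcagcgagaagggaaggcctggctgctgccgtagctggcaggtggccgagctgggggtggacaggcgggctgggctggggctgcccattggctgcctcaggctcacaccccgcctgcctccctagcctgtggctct
Per3: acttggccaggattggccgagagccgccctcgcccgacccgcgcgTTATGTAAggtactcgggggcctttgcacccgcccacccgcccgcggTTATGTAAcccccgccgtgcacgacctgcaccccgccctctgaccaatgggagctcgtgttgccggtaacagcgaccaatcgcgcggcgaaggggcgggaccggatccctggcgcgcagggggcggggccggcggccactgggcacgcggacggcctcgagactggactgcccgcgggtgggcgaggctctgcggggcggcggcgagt
Nfil3: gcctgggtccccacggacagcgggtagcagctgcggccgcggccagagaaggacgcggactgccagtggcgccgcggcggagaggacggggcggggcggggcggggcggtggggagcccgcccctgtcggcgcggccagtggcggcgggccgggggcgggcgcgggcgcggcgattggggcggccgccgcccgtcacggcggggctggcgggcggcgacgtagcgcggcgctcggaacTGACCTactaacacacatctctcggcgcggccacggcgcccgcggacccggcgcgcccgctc
Pola1: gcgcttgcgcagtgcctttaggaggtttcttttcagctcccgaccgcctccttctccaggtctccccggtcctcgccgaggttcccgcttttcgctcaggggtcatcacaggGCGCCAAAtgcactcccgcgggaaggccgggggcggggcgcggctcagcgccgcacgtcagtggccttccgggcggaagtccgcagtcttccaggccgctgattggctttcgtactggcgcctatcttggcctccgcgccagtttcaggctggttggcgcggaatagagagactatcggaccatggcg
Dtl: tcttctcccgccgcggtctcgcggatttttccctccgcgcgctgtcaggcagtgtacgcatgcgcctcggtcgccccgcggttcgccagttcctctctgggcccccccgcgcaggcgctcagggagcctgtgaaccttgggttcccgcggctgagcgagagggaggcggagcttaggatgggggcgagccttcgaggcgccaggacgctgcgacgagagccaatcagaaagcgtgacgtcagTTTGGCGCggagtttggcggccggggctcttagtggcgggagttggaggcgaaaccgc
Of all 32851 promoter windows, 7.15% held an E-box, 1.78% a D-box, 16.3% a RORE core and 1.84% an E2F site. Of the 7 clock genes called lower, 2 held an E-box, 1 a D-box and 1 (Nr1d2) a RORE core. Of the 4 called higher, 2 (Arntl and Nfil3) held a RORE core and 1 (Cry1) an E-box. These clock counts are per gene. Counted that way, 10.2% of the 14452 tested genes with a window held an E-box, 1.79% a D-box and 16.5% a RORE core. Of the 46 genes called higher that had a window, 15.2% held a RORE core. A match is a run of letters, not a bound site, and the windows of Dbp and Nr1d1 held none of the E-box letters.

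In all, 92 of 18193 genes were called in conventional knockouts against wild types at 7 weeks (0.506%), 62 higher (0.341%) and 30 lower (0.165%). A gene is called here when its p from limma's moderated test, adjusted by Benjamini and Hochberg's method across the whole table, is under 0.05. At an unadjusted p under 0.05 there were 1994 genes (11%), 1195 higher (6.57%) and 799 lower (4.39%). Of the called genes, 43 differed at least 2-fold, 26 higher and 17 lower. In 91 of the 92 the groups did not overlap, as held for 18.6% of all genes (10.4% with knockouts higher, 8.17% lower). With each array centred on its median the split was 38 higher and 29 lower. Leaving out 1 array of the conventional knockouts gave 41 genes for replicate 1, 60 for replicate 2 and 37 for replicate 3. The lowest count was 30, reached when the second wild type of 7 weeks was dropped, and the highest was 156, reached when the second SPF knockout of 12 weeks was dropped.

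Clock genes held the largest differences. Of the 12 core clock genes measured, 3 were called higher and 1 lower (0.341% and 0.165% of all genes were). Of the 11 output and repressor genes, 1 was called higher and 6 lower. Dbp, the D-box activator, had 5.53, 4.87 and 5.03 in conventional knockouts, against 10.06, 10.26 and 10.22 in wild types (log2 levels). The difference was -5.04 ± 0.67 (SE, limma adjusted p = 0.000201), a knockout level of 0.0304 times that of wild types. This was the largest called difference among the 18193 genes, and the 2 groups lay far apart.

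The nuclear receptor repressor Nr1d1 read 5.49, 5.84 and 5.05 in conventional knockouts and 8.73, 8.53 and 8.56 in wild types. Its relative Nr1d2 read 8.11, 8.23 and 7.89 in conventional knockouts and 10.79, 10.92 and 10.98 in wild types. Both repressors were thus lower on all 3 knockout arrays, by -3.15 ± 0.41 for Nr1d1 and -2.82 ± 0.37 for Nr1d2 (limma adjusted p = 0.000194 and 0.000169). The D-box factor Tef had 7.28, 7.14 and 6.72 in conventional knockouts, against 9.18, 9.32 and 9.39 in wild types. Ciart, which encodes a repressor of ARNTL and whose window holds the 3 E-boxes, had 4.86, 4.93 and 5.11 in conventional knockouts, against 6.97, 6.96 and 7.10 in wild types. The differences were -2.25 ± 0.34 for Tef and -2.04 ± 0.26 for Ciart, and the groups did not overlap in either gene.

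Hlf, the remaining D-box activator, differed by -1.63 ± 0.37 and Per3, a period gene, by -1.39 ± 0.31 (limma adjusted p = 0.0448 for both). Hlf was called in 8 and Per3 in 9 of the 27 fits that each leave out 1 array, with the same sign in every fit and adjusted p up to 0.223 for Hlf and 0.296 for Per3. Further probe sets of Per3 differed by -1.95, -1.57, -0.71, -0.22 and -0.15. That of Hlf differed by -0.44 (unadjusted p = 0.0688 by limma). Cipc, whose product inhibits CLOCK and which is outside the lists, had 9.52, 9.27 and 9.25 in conventional knockouts, against 10.18, 10.46 and 10.50 in wild types (-1.03 ± 0.20, limma adjusted p = 0.0142). It was singled out after its values were seen. Coq10b, a coenzyme Q gene that is rhythmic in many tissues, was lower by -0.65 ± 0.13. It was the 1 called gene of 14 measured in that list (0.165% of all genes were called lower). Coq10b lost its call without conventional knockout replicate 1 or 2 or wild-type replicate 1 or 3 of that age (adjusted p up to 0.112), and the list's count ranged from 0 to 4 over the fits that leave out 1 array.

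Genes of the opposite phase were higher. The repressor Nfil3 had 7.04, 7.40 and 7.22 in conventional knockouts, against 5.21, 4.39 and 4.56 in wild types, 5.65-fold higher (2.50 ± 0.24, limma adjusted p = 5.76e-06). Arntl, the activator of the loop, had 8.53, 8.60 and 8.47 in conventional knockouts, against 6.74, 6.30 and 6.05 in wild types (2.17 ± 0.33). Cry1, an inhibitor of ARNTL, had 7.94, 7.37 and 7.79 in conventional knockouts, against 5.64, 5.51 and 6.19 in wild types (1.92 ± 0.24). In these genes every knockout array lay above every wild-type array. Npas2, a partner of ARNTL, had 7.47, 7.38 and 7.15 in conventional knockouts, against 5.87, 5.45 and 5.69 in wild types (1.66 ± 0.26). Calls of Nfil3, Arntl, Cry1, Npas2, Dbp, Nr1d1, Nr1d2, Tef and Ciart remained in all 27 fits that leave out 1 array.

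**Figure D1:**
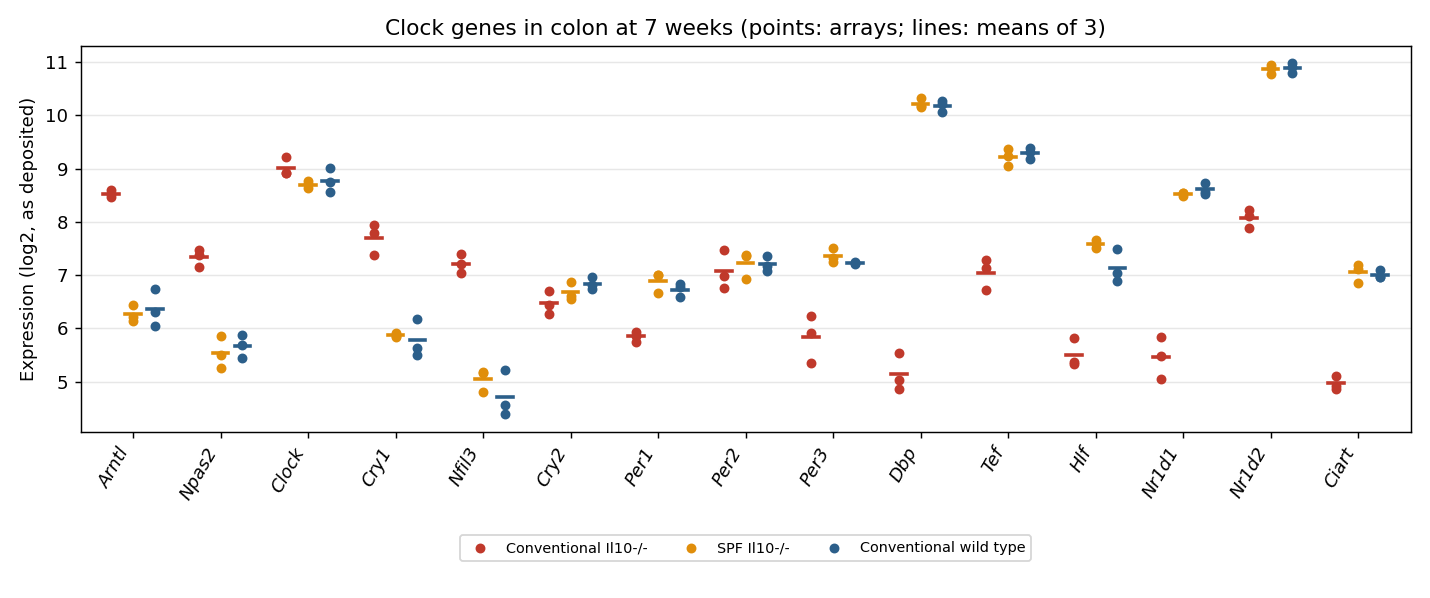
Log2 expression of 15 clock genes at 7 weeks on each array (points) with the mean of 3 (lines), in conventional Il10-/-, SPF Il10-/- and conventional wild-type mice from left to right. Arntl, Npas2, Cry1 and Nfil3 are highest and Dbp, Tef, Hlf, Nr1d1, Nr1d2, Ciart and Per3 lowest in conventional knockouts, while SPF knockouts lie beside wild types.

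Other members of the loop did not pass the test. Per1 had 5.86, 5.75 and 5.93 in conventional knockouts, against 6.77, 6.58 and 6.84 in wild types (-0.88 ± 0.28, limma adjusted p = 0.214). Per2 had 7.47, 6.76 and 6.99 in conventional knockouts, against 7.08, 7.16 and 7.36 in wild types, so its groups overlapped (-0.13 ± 0.31). The differences were -0.37 ± 0.18 for Cry2, 0.25 ± 0.13 for Clock, -0.33 ± 0.13 for Bhlhe40, -0.25 ± 0.12 for Bhlhe41, 0.68 ± 0.25 for Timeless and 0.29 ± 0.12 for the kinase gene Csnk1e. Csnk1d (0.17 ± 0.13), Fbxl21 (0.01 ± 0.14), Rora (0.08 ± 0.15) and Rorb (-0.08 ± 0.12) differed by less.

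SPF knockouts stood with the wild types in these genes. Dbp averaged 10.22 ± 0.09 in SPF knockouts and 10.18 ± 0.11 in wild types at 7 weeks (SD, n = 3 each). Arntl averaged 6.26 ± 0.15 in SPF knockouts and 6.37 ± 0.35 in wild types. Against SPF knockouts, conventional knockouts differed by -5.08 ± 0.67 in Dbp, -3.07 ± 0.41 in Nr1d1, 2.27 ± 0.33 in Arntl and 2.17 ± 0.24 in Nfil3 (limma adjusted p = 0.000327, 0.000364, 0.0011 and 0.00015). Conventional knockout arrays enter both comparisons, so these are not independent of the differences from wild types.

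Dbp and Arntl are given at the later ages without a test of age. Dbp ranged between 5.004 and 7.05 in conventional knockouts, between 3.90 and 5.02 in SPF knockouts and between 6.60 and 6.97 in wild types at 9 weeks. At 12 weeks it ranged between 4.66 and 6.59 in conventional knockouts, between 3.83 and 4.59 in SPF knockouts and between 5.93 and 9.94 in wild types. SPF knockouts thus had Dbp at the level of wild types at 7 weeks and below every wild-type array at the other ages. Arntl ranged between 7.09 and 7.56 in conventional knockouts, between 7.81 and 8.28 in SPF knockouts and between 7.91 and 8.11 in wild types at 9 weeks. Wild types at 12 weeks spanned 6.32 to 8.38 in Arntl, so the 3 arrays of that group were not alike.

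A clock score was taken on each array as the mean of Arntl, Clock, Npas2, Cry1 and Nfil3 minus the mean of Dbp, Tef, Hlf, Nr1d1, Nr1d2, Ciart, Per1, Per2 and Per3. It was 1.74, 1.84 and 1.98 in conventional knockouts, -1.88, -2.13 and -2.12 in SPF knockouts and -1.71, -2.12 and -2.15 in wild types at 7 weeks. Conventional knockouts had 0.27 to 1.80 at 9 weeks and 0.92 to 1.88 at 12 weeks. Wild types had 0.79, 0.86 and 0.61 at 9 weeks and -0.96, -1.32 and 1.42 at 12 weeks, so 1 of the 12-week wild types lay beside the knockouts. At 7 weeks the score separates the conventional knockouts from the wild types without overlap, and the 2 cannot be told apart within that age. With the score as a covariate in limma's fit, 0 genes remained called at 7 weeks (1051 had an unadjusted p under 0.05). Because the score nearly follows the 2 groups compared, that fit can hardly separate group from score in any gene. A call lost there says nothing on the clock's part in that gene, which was not tested.

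**Figure D2:**
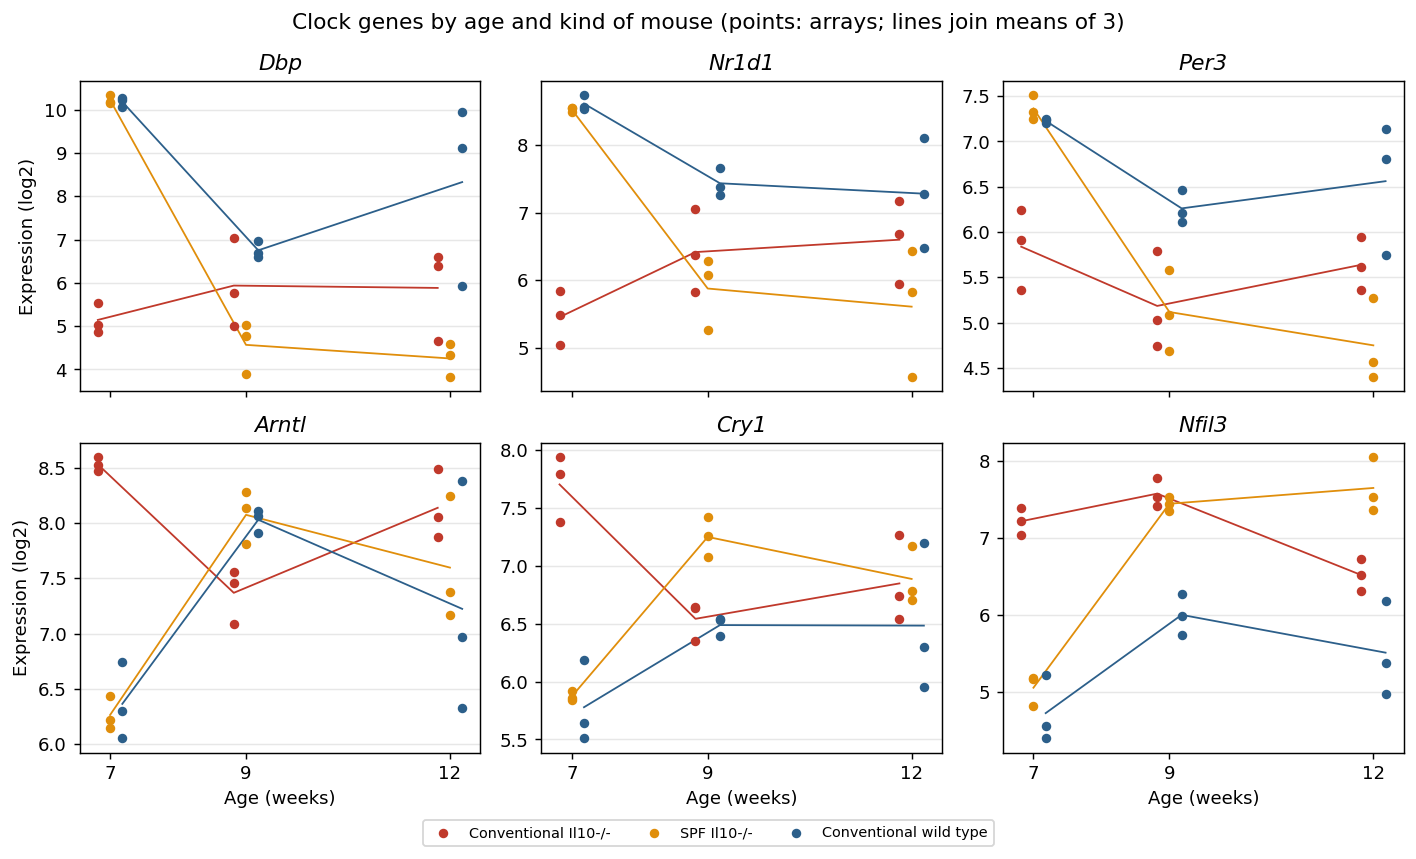
Log2 expression of Dbp, Nr1d1, Per3, Arntl, Cry1 and Nfil3 at 7, 9 and 12 weeks, with each array as a point and lines joining the means of 3, for conventional Il10-/-, SPF Il10-/- and wild-type mice. Dbp averaged 5.14 in conventional knockouts at 7 weeks, against 10.22 in SPF knockouts and 10.18 in wild types.

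Immediate early genes were the next group. They are switched on within minutes by growth factors, stress or neural input through the MAP kinases, and the DUSP phosphatases they include switch those kinases off again. Of 33 measured, 8 were called higher (0.341% of all genes were), 0 were called lower, 27 had a positive difference and the median was 0.36, against -0.0027 over all genes. Egr1 had 10.26, 9.84 and 9.08 in conventional knockouts, against 7.35, 8.01 and 8.28 in wild types (1.84 ± 0.36, limma adjusted p = 0.0166). Fos had 11.76, 10.93 and 11.34 in conventional knockouts, against 10.003, 10.34 and 10.37 in wild types (1.10 ± 0.20). Dusp6, a phosphatase of the ERK kinases, had 9.20, 9.38 and 9.53 in conventional knockouts, against 7.95, 7.89 and 8.14 in wild types (1.38 ± 0.17, limma adjusted p = 0.000111). The 2 groups did not overlap in these 3 genes.

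The stress factor gene Atf3 differed by 1.37 ± 0.31, the phosphatase gene Dusp1 by 0.89 ± 0.19, Fosb by 0.76 ± 0.14, Ier5 by 0.68 ± 0.11 and the nuclear receptor gene Nr4a1 by 1.26 ± 0.29, all called higher. Fosb read 3.70 to 3.99 in conventional knockouts and 2.90 to 3.21 in wild types, near the low end of the scale. Dusp6 and Ier5 were called in all 27 fits that leave out 1 array, Atf3 in 11, Dusp1 in 16 and Nr4a1 in 8 of them. Egr1 lost its call without conventional knockout replicate 1 or 2 or wild-type replicate 1 or 2 (adjusted p up to 0.143). The list's count ranged from 2 to 8 over those fits. Conventional knockouts also exceeded SPF knockouts in 6 of the 33 genes (0.154% of all genes), with differences of 1.19 ± 0.17 in Dusp6 and 1.09 ± 0.20 in Fos. In SPF knockouts the list's median difference from wild types was 0.01.

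Hbegf, a ligand of the EGF receptor, was the called gene of 19 measured in that pathway (0.341% of all genes were called higher). It had 8.54, 8.10 and 8.08 in conventional knockouts, against 6.07, 6.29 and 6.53 in wild types, 3.85-fold higher (1.94 ± 0.29, limma adjusted p = 0.000976). Egfr, the receptor, had 7.49, 7.11 and 7.12 in conventional knockouts, against 6.78, 6.48 and 6.76 in wild types (0.57 ± 0.15, limma adjusted p = 0.101). Egfr and Ereg, a related ligand (0.89 ± 0.36), did not pass the test. Trib1, a pseudokinase gene outside the lists, had 8.21, 7.95 and 7.85 in conventional knockouts, against 7.01, 7.07 and 6.81 in wild types (1.05 ± 0.14). Trib1 was chosen after its values were seen.

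**Figure D3:**
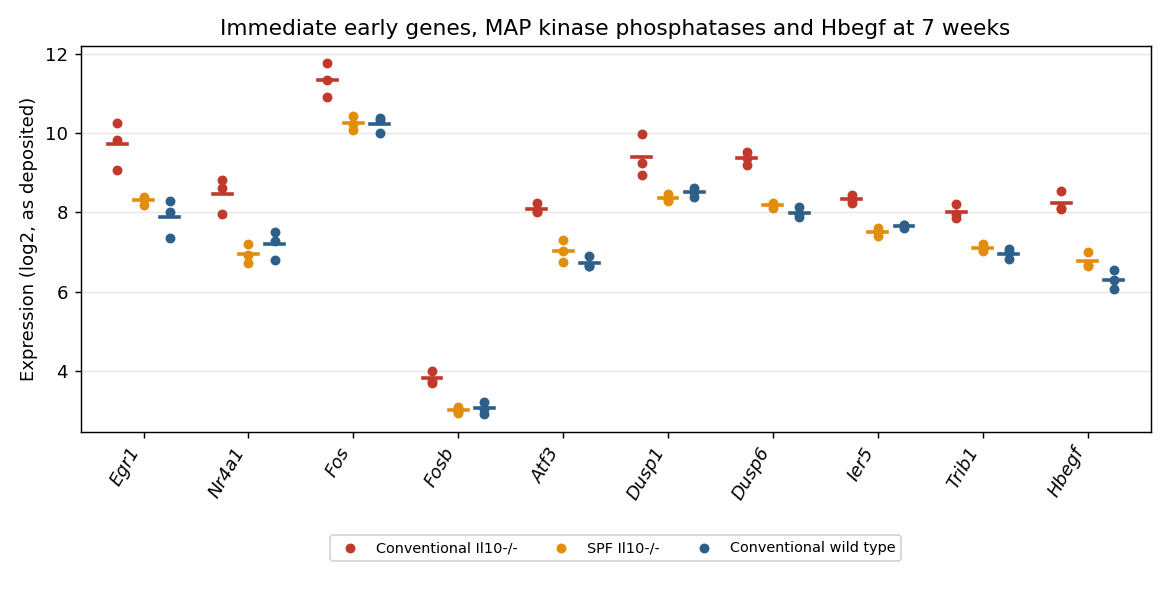
Log2 expression of 8 immediate early genes, Trib1 and Hbegf at 7 weeks on each array (points) with the mean of 3 (lines), in conventional Il10-/-, SPF Il10-/- and wild-type mice from left to right. Every conventional knockout array lies above all arrays of the other kinds in each gene, with Dusp6 at 9.20 to 9.53 against 7.89 to 8.14 in wild types.

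Other large differences were in genes of no common list. Lonrf3, an X-linked gene with a RING finger, had 8.23, 7.87 and 7.75 in conventional knockouts, against 6.76, 5.80 and 5.75 in wild types (1.85 ± 0.24, limma adjusted p = 0.000169). Spon2, a secreted matrix protein gene, had 7.95, 7.91 and 7.83 in conventional knockouts, against 7.02, 6.24 and 6.52 in wild types (1.31 ± 0.20). Tns4, which encodes a focal adhesion protein of epithelium, was lower, with 8.99, 9.17 and 8.91 in conventional knockouts, against 10.65, 10.47 and 10.32 in wild types (-1.46 ± 0.16, limma adjusted p = 4.58e-05). Each of the 3 genes was called in all 27 fits that leave out 1 array, and each differed from SPF knockouts in the same direction (1.78 ± 0.24 for Lonrf3, 1.58 ± 0.20 for Spon2, -1.25 ± 0.16 for Tns4).

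Of 17 genes that respond to glucocorticoids, 1 was called higher and 1 lower (0.341% and 0.165% of all genes were). At an unadjusted p under 0.05, 1 was higher and 5 were lower (6.57% and 4.39% of all genes). Mt1, a metallothionein gene, had 10.24, 10.57 and 10.25 in conventional knockouts, against 11.51, 11.46 and 11.51 in wild types (-1.14 ± 0.26, limma adjusted p = 0.0448). Its call held in 10 of the 27 fits that leave out 1 array. Dusp1, named above, is the member that was higher. The unannotated 0610005C13Rik was lower (-1.15 ± 0.25) and C730049O14Rik higher (1.28 ± 0.28), each called in 13 of the 27 fits.

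The list of cell cycle genes gave no call, and 0 to 3 calls when 1 array was left out. Of 31 members measured, 0 were called by limma, 27 had a positive and 4 a negative difference, 21 were higher at an unadjusted p under 0.05 (6.57% of all genes were) and 1 was lower. The median difference was 0.56, against 0.21 in SPF knockouts, 1.04 in conventional knockouts at 9 weeks and 0.17 at 12 weeks, each against wild types of that age. Pcna, the sliding clamp of replication, had 11.25, 11.17 and 11.29 in conventional knockouts, against 10.90, 10.47 and 10.52 in wild types (0.61 ± 0.15, limma adjusted p = 0.0701). Bub1, a mitotic checkpoint kinase gene, differed by 0.87 ± 0.24 (limma adjusted p = 0.127).

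Outside the list, 16 called genes act in replication, repair or chromosome handling, a group put together after the values were seen and given as a description. Brca1, which encodes a repair protein, had 6.23, 6.17 and 6.34 in conventional knockouts, against 4.82, 4.96 and 4.81 in wild types (1.38 ± 0.25). E2f2, one of the E2F activators, had 7.07, 7.11 and 7.47 in conventional knockouts, against 5.94, 5.62 and 5.80 in wild types (1.43 ± 0.25). Pola1, the catalytic subunit of DNA polymerase alpha, had 6.79, 6.80 and 6.87 in conventional knockouts, against 6.04, 5.82 and 6.13 in wild types (0.83 ± 0.15). Every knockout array was above every wild-type array in these 3 genes. Brca1 was called in 26 and E2f2 and Pola1 in 25 of the 27 fits that leave out 1 array. The others were the primase gene Prim1, the polymerase gene Pole, Dtl, Mcm8, Tcf19, Esco2, Pclaf, Atad2, Cdca5, Rbl1, Fignl1, Ncapg2 and Kif24. Pole and Ncapg2 were called in 10 and Prim1 and Cdca5 in 13 of those fits, and the rest in 21 or more. On further probe sets Brca1 differed by 0.59, 0.006 and 0.54, at mean levels of 3.98, 3.87 and 4.38. E2f2 differed by 1.81 on another, and Pola1 by -0.13 near the low end of the scale (mean 3.04). Those of Kif24 gave -0.22 (unadjusted p = 0.0451 by limma) and 0.19. Those of Tcf19 and Esco2 were negative, those of Rbl1 mixed and those of Cdca5, Prim1, Dtl, Atad2, Pclaf and Fignl1 positive.

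On the probe sets tested, the 16 genes differed from wild types by 0.45 to 1.43 in conventional knockouts and by 0.10 to 0.43 in SPF knockouts. The difference between the kinds of knockout was called in 3 of the 16, E2f2 (1.24 ± 0.25), Dtl (0.80 ± 0.17) and Pola1 (0.72 ± 0.15). At 12 weeks the 16 genes differed from wild types by -0.26 to 0.50. Of the 13 with a promoter window, 7 held an E2F site. The group was picked by function from called genes, and E2F factors act at replication genes, so this share is no test. Of all 46 genes called higher that had a window, 7 held an E2F site (15.2%), as did 3.25% of the 14452 tested genes with a window. These are the same 7 genes, all from the group of 16, so this share is no separate result. Among the 25 members of the cell cycle list with a window, 6 held one.

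Genes of the unfolded protein response, by which cells answer a load of misfolded protein in the endoplasmic reticulum, gave 0 calls among 27 measured. Of these, 12 were higher at an unadjusted p under 0.05 (6.57% of all genes were), 0 were lower and the median was 0.31. Sdf2l1 had 7.93, 7.66 and 8.31 in conventional knockouts, against 7.20, 6.79 and 6.94 in wild types (0.99 ± 0.23, limma adjusted p = 0.0544). Pdia6, a disulfide isomerase gene, differed by 0.61 ± 0.16 (limma adjusted p = 0.102). Eif2ak3, the gene of the stress sensor PERK and no member of the list, was called higher at 9.29, 9.19 and 9.28 in conventional knockouts, against 8.78, 8.85 and 8.86 in wild types (0.43 ± 0.08).

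Interferon gamma, made by T cells and natural killer cells, induces GTPases that attack microbes inside cells, the immunoproteasome and antigen presentation. Of the 28 genes of that response measured, 2 were called higher (0.341% of all genes were) and 0 lower. At an unadjusted p under 0.05, 14 were higher (6.57% of all genes). The GTPase gene Iigp1 had 8.48, 7.88 and 10.64 in conventional knockouts, against 6.95, 6.43 and 6.59 in wild types (2.34 ± 0.48, limma adjusted p = 0.0242). Irgm2 had 8.21, 7.78 and 9.09 in conventional knockouts, against 7.08, 6.75 and 7.50 in wild types (1.25 ± 0.26, limma adjusted p = 0.03). The third knockout replicate was the highest array in both genes. Without it Iigp1 differed by 1.52 and Irgm2 by 0.88 on the log2 scale, and neither was called. Irgm2 also lost its call without conventional knockout replicate 1 or wild-type replicate 1 or 2, and Iigp1 without wild-type replicate 2 or 3. The list's count ranged from 0 to 5 over the fits that leave out 1 array.

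Conventional and SPF knockouts did not pass the test of their difference in Iigp1 (0.27 ± 0.48) or Irgm2 (0.19 ± 0.26). The list's median was 0.55 in conventional knockouts and 0.59 in SPF knockouts against the same wild types at 7 weeks. It was 2.45 at 9 weeks and 0.70 at 12 weeks in conventional knockouts. The difference was smaller at 7 than at 9 weeks in 14 of the 28 genes by a test of that change (1.11% of all genes), among them Iigp1 (-2.98, adjusted p = 0.0318). Ifng itself had 3.02, 2.61 and 3.32 in conventional knockouts, against 2.74, 2.82 and 2.73 in wild types.

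The alarmin genes S100a8 and S100a9, made by neutrophils, differed by 0.15 and 0.16 at 7 weeks and by 6.98 and 6.65 at 9 weeks. S100a8 had 3.84, 3.50 and 3.89 in conventional knockouts, against 3.61, 3.61 and 3.58 in wild types at 7 weeks. Of 30 cytokine and chemokine genes, 0 were called by limma and the median was -0.05. At an unadjusted p under 0.05, 1 was higher (6.57% of all genes were). Ccl8 was that gene (0.82 ± 0.39, limma adjusted p = 0.448). Il1b (0.48 ± 0.72), Tnf (0.26 ± 0.25) and Il17a (-0.25 ± 0.35) had differences smaller than or close to their SE.

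Of 23 type I interferon genes, 0 were called by limma, with a median of 0.12. At an unadjusted p under 0.05, 3 were higher (6.57% of all genes were). For MHC class II 0 of 10 were called and 5 were higher at an unadjusted p under 0.05, beside the same 6.57%. H2-Ab1 had 9.25, 9.08 and 10.20 in conventional knockouts, against 8.40, 8.58 and 8.57 in wild types (0.99 ± 0.32, limma adjusted p = 0.214), again with replicate 3 highest. Cd14, co-receptor for bacterial lipopolysaccharide, was the gene called higher of 26 in epithelial defence and of 17 macrophage markers (0.341% of all genes were). It had 9.14, 8.85 and 8.95 in conventional knockouts, against 8.38, 7.99 and 7.69 in wild types (0.96 ± 0.22, limma adjusted p = 0.0435), and was called in 13 of the 27 fits that leave out 1 array. Reg3g, a bactericidal lectin gene, had 9.89, 10.67 and 11.81 in conventional knockouts, against 7.83, 7.82 and 10.61 in wild types, so its groups overlapped (limma adjusted p = 0.222).

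**Figure D4:**
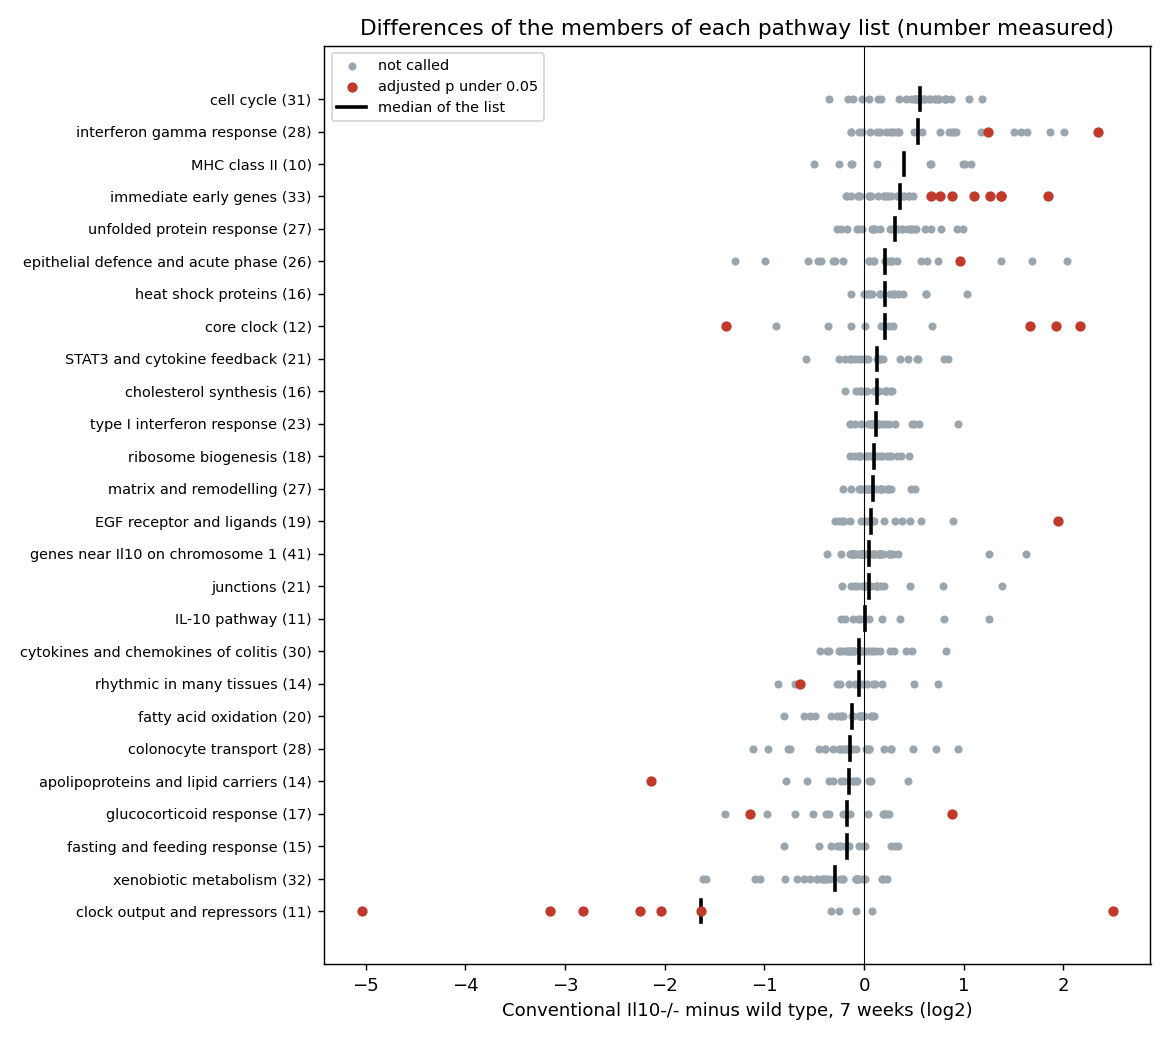
Difference between conventional knockouts and wild types at 7 weeks (log2) for every measured member of 26 pathway lists, with called genes in red and the list's median as a bar. The clock output list has a median of -1.63 and the cell cycle list one of 0.56 with 0 called genes.

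Several called genes differed from wild types by nearly as much in SPF knockouts. Wdfy1, which encodes an endosomal adaptor of Toll-like receptors, had 7.23, 7.50 and 7.62 in conventional knockouts, against 5.71, 5.30 and 5.91 in wild types. The difference was 1.81 ± 0.26 in conventional and 2.26 ± 0.26 in SPF knockouts. Stk25, a kinase gene, had 8.35, 8.20 and 8.60 in conventional knockouts, against 9.82, 9.58 and 9.65 in wild types, with differences of -1.30 ± 0.16 in conventional and -1.22 ± 0.16 in SPF knockouts. D2hgdh, the gene of a mitochondrial dehydrogenase, had 6.62, 6.59 and 6.84 in conventional knockouts, against 7.84, 7.995 and 8.03 in wild types. Its difference of -1.27 ± 0.12 had the smallest adjusted p of all genes (limma, 3.44e-06), and it was -1.01 ± 0.12 in SPF knockouts. The other probe set of D2hgdh, of lower mean level (5.81), differed by 0.01 between conventional knockouts and wild types (unadjusted p = 0.939 by limma). The wild-type arrays are shared by both differences.

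Pam, which amidates peptide hormones, differed by 1.17 ± 0.20 in conventional and 1.17 ± 0.20 in SPF knockouts. Panct2 (1.20 ± 0.15 and 1.02 ± 0.15) and 3110009E18Rik (1.23 ± 0.15 and 1.16 ± 0.15) are noncoding or unannotated and behaved likewise in conventional and SPF knockouts. Gal3st2, a sulfotransferase gene of mucin glycans, had 7.86, 7.47 and 7.06 in conventional knockouts, against 9.31, 8.99 and 8.85 in wild types (-1.59 ± 0.32). Mid1, an X-linked ubiquitin ligase gene, had 5.95, 5.28 and 5.49 in conventional knockouts, against 7.47, 7.73 and 6.54 in wild types (-1.67 ± 0.28). In SPF knockouts Mid1 differed by -1.90 ± 0.28, and Gal3st2 by -1.20, which was not called (limma adjusted p = 0.307). The other 2 probe sets of Mid1, near the low end of the scale (mean 3.26 and 3.28), differed by -0.08 and 0.21. Mid1 lost its call without wild-type replicate 2 (adjusted p = 0.0618), and Gal3st2 in 4 of the 27 fits.

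In 8 of these genes and in Iigp1, Irgm2 and Il10 the difference kept its sign at 9 and 12 weeks. Stk25 differed by -1.35 and -1.38, D2hgdh by -0.96 and -1.05, Wdfy1 by 2.17 and 2.26 and Mid1 by -2.15 and -2.54 at 9 and 12 weeks. For none of the 8 did the change of the difference between 7 and 9 weeks pass the test.

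**Figure D5:**
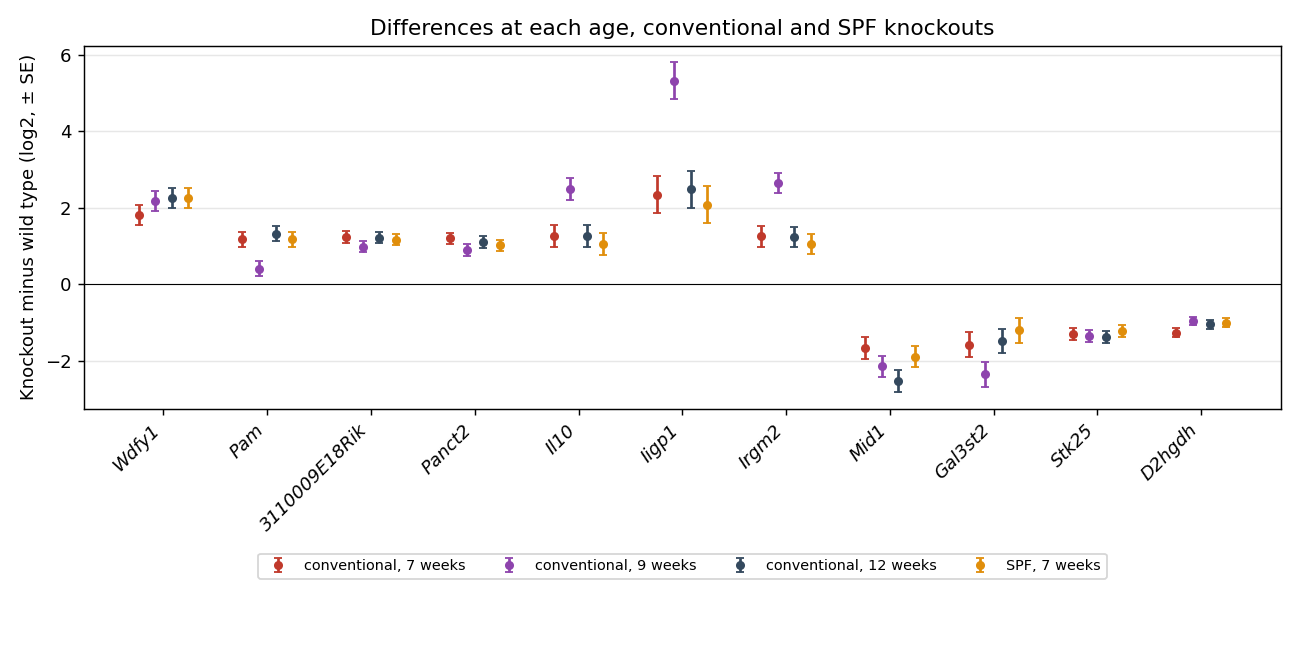
Knockout minus wild-type difference (log2, points, with SE bars) of 11 genes in conventional knockouts at 7, 9 and 12 weeks and in SPF knockouts at 7 weeks. Stk25 lies between -1.38 and -1.22 in all 4 comparisons, whereas Iigp1 is 2.34 at 7 weeks and 5.32 at 9 weeks.

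Il10 lies on chromosome 1, where 15 of 1057 genes tested were called (1.42%, against 0.506% over all chromosomes). The share was 1.31% on chromosome 18 (6 of 458) and at most 0.81% on the others. Counted along the chromosome in the order of GRCm38.p6, Il10 was gene 598 of 1057. The called genes Wdfy1, Stk25, D2hgdh, Gal3st2, Panct2, Pam, Clasp1, 3110009E18Rik and Rab3gap1 were genes 377, 492, 498, 499, 506, 512, 541, 554 and 576. Clasp1 differed by 0.46 ± 0.10 in conventional and 0.45 ± 0.10 in SPF knockouts, where it was not called (limma adjusted p = 0.103). Rab3gap1 differed by 0.40 ± 0.07 in conventional and 0.52 ± 0.07 in SPF knockouts. Other probe sets of Clasp1, at mean levels of 4.64, 4.07 and 5.52, differed by -0.14, 0.06 and -0.04 in conventional knockouts. The remaining called genes of the chromosome (Npas2, Coq10b, Ier5, Lefty1, Atf3 and Dtl) lay outside that stretch, at genes 144, 209, 745, 964, 1026 and 1030. Their differences were between -0.16 and 0.30 in SPF knockouts. The stretch was marked off after the values of both kinds of knockout were seen, and Il10 also lies outside it. Of 41 measured genes listed as near Il10, 0 were called by limma. At an unadjusted p under 0.05, 4 were higher (6.57% of all genes were).

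Il10 itself read 4.99, 5.10 and 5.001 in conventional knockouts, against 3.72, 3.77 and 3.83 in wild types (1.25 ± 0.29, limma adjusted p = 0.0507). The knockout arrays were the higher ones, and SPF knockouts differed by 1.06. The labels do not give the deleted part of the gene or the place of the probes, so this signal does not check the genotype. Ctse, a protease gene among those near Il10, differed by 1.62 ± 0.40 (limma adjusted p = 0.0766).

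Signals from other tissues and cell types moved with some results. In bulk tissue, fewer cells of a type and less RNA per cell cannot be told apart. All 17 macrophage markers had positive differences. Of these 1 was called higher (0.341% of all genes were) and 6 were higher at an unadjusted p under 0.05 (6.57% of all genes). The mean log2 level over the macrophage markers was 7.07 to 7.16 in conventional knockouts and 6.50 to 6.81 in wild types. All 12 B cell markers had negative differences (0 called by limma, 3 lower at an unadjusted p under 0.05, as were 4.39% of all genes). Their list means were 4.48 to 5.13 in conventional knockouts and 5.19 to 5.61 in wild types. All 12 pancreatic acinar genes had negative differences (0 called by limma, median -0.90), and 6 were lower at an unadjusted p under 0.05 (4.39% of all genes were). Their list means were 5.41 to 5.52 in conventional knockouts and 5.50 to 7.92 in wild types. All 8 adipocyte markers had negative differences (0 called by limma, median -0.38), and 1 was lower at an unadjusted p under 0.05, beside the same 4.39%. Adipocyte list means were 5.62 to 6.11 in conventional knockouts and 6.19 to 6.78 in wild types. The part of these markers in the results above was not tested.

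Apoc1, a gene of lipoprotein particles, had 3.39, 3.54 and 3.52 in conventional knockouts, against 7.33, 5.62 and 3.92 in wild types (-2.14 ± 0.44, limma adjusted p = 0.0242). Without wild-type replicate 1 the difference was -1.29 (limma adjusted p = 0.0415). Apoc1 lost its call without wild-type replicate 2 or any 1 of the conventional knockouts (adjusted p up to 0.121), which leaves 0 of 14 called in the apolipoprotein list. Ambp (-0.94 ± 0.18) and Cyp2a12 (-0.77 ± 0.17), both known from liver, were also called lower. A list of 18 liver genes, added after these calls were seen, gave means of 4.53, 4.79 and 4.47 in conventional knockouts and 5.79, 5.31 and 4.62 in wild types over 16 measured genes. Wild-type replicates 1 and 2 were thus highest in Apoc1, in Alb and in the list. Of the 16 genes 0 were called by limma and 8 were lower at an unadjusted p under 0.05 (4.39% of all genes were). The part of liver RNA in the Apoc1 result was not tested.

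Metabolic lists had few or no calls. Of 32 genes of xenobiotic metabolism 0 were called by limma, 6 were lower at an unadjusted p under 0.05 (4.39% of all genes), 27 had a negative difference and the median was -0.30. Cyp4b1, a cytochrome P450 gene, had 6.60, 7.30 and 6.15 in conventional knockouts, against 7.84, 8.47 and 8.58 in wild types (-1.62 ± 0.50, limma adjusted p = 0.203). Slc2a5, the fructose transporter gene and outside the lists, was called lower at 4.73, 4.55 and 4.95 in conventional knockouts, against 5.52, 5.69 and 5.33 in wild types (-0.77 ± 0.14). Fatty acid oxidation (0 of 20 called, 3 lower at an unadjusted p under 0.05), cholesterol synthesis (0 of 16, 0 lower) and ribosome biogenesis (0 of 18, 0 lower) stayed without a call by limma. Cldn8, a tight junction gene, had 11.04, 10.98 and 10.33 in conventional knockouts, against 9.96, 9.46 and 8.79 in wild types (1.38 ± 0.36, limma adjusted p = 0.111).

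Set beside 9 weeks, the difference between conventional knockouts and wild types was tested for change. By limma 366 genes were called (2.01%), 164 with a higher (0.901%) and 202 with a lower (1.11%) difference at 7 weeks. Leaving out 1 array moved that count to between 48 (without conventional knockout 7-week replicate 2) and 1353 (without the second SPF knockout of 12 weeks), and by over 1.5 times for 16 of the 27 arrays. Arntl differed by 2.17 at 7 weeks and -0.66 at 9 weeks (change 2.83, adjusted p = 0.00598). Npas2 and Lonrf3 changed by 2.64 and 2.43, Cry1 by 1.87 and Dbp by -4.22. Set beside 12 weeks, 0 genes passed limma's test (2088, or 11.5%, had an unadjusted p under 0.05), and 40 were called without wild-type 12-week replicate 1, 4 without wild-type 7-week replicate 3 and 1 without wild-type 7-week replicate 1. Arntl differed by 0.91 and Dbp by -2.44 at 12 weeks. At 9 and 12 weeks themselves 4375 (24%) and 82 (0.451%) genes were called between conventional knockouts and wild types.

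Between conventional and SPF knockouts at 7 weeks limma called 49 genes (0.269%), 28 higher (0.154%) and 21 lower (0.115%) in conventional knockouts. Without replicate 1, 2 or 3 the count was 19, 23 or 25 for the conventional and 31, 18 or 20 for the SPF knockouts of that age. Besides the genes given above, Klf10, an early response gene (0.94 ± 0.20), and Zfp367 (0.78 ± 0.14) were higher, while Usp2, a rhythmic ubiquitin protease gene (-0.84 ± 0.17), and Klf15 (-1.16 ± 0.25) were lower. Klf10, Zfp367, Usp2 and Klf15 were chosen after their values were seen, and none was called against wild types. Between SPF knockouts and wild types 10 genes were called (0.055%), 6 higher (0.033%), 4 lower (0.022%) and 7 of them on chromosome 1.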

How the data were processed

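RNA of 27 full-thickness colon samples was measured on Affymetrix arrays of 45101 probe sets. The design text names a rat array, whereas the probe sets carry mouse genes. The authors deposited log2 values, normalized with affyPLM per the series' design text. For its version and background step, nothing is stated there. The deposited values run from 2.10 to 14.25 and were not normalized again. After 64 control probe sets were left out, 34945 had 1 gene symbol in GEO's platform annotation, 932 several and 9160 none. The 34945 gave 18193 genes. Gene order, chromosomes and promoters came from RefSeq tables of GRCm38.p6, in which 14452 of the genes had a promoter.

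Group means over all 27 arrays were fitted with limma 3.58.1 in R 4.3.3 (18 residual and 4.18 prior degrees of freedom, moderated two-sided tests, Benjamini-Hochberg adjustment over 18193 genes, threshold 0.05). The 27 arrays share 1 estimate of the spread. The script was tested on simulated data. Figures used Python 3.11.15 and matplotlib 3.10.9. Arrays carry no read depth, and their number limits the precision.

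The members, the 26 pathway lists, the 24 marker lists and the tests were chosen with earlier results of these data known. Named were the 15 largest called rises and the 15 largest called falls, up to 6 called members of each list, the 2 members of smallest p of each list without a call, Il10 and all clock genes. Other named genes (among them Cipc, Trib1, Nr4a1, Eif2ak3, Slc2a5, Pam, Panct2, 3110009E18Rik, Clasp1, Rab3gap1, Lefty1, Ambp, Cyp2a12, Alb, Reg3g, S100a8, S100a9, Ifng, Il1b, Tnf, Il17a, Ereg and the replication genes) were chosen after their values were seen. Of 918 list entries 849 were measured, 4 of them under an older symbol.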

Additional observations from a re-analysis of the deposited data

Results flagged for a closer look

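The difference between conventional knockouts and wild types was not the same at 7 and 9 weeks in 366 genes by limma's test of the change. Among named genes the change (difference at 7 weeks minus difference at 9 weeks, log2) was positive in Arntl (2.83), Npas2 (2.64), Lonrf3 (2.43), Cry1 (1.87), Spon2 (1.59), Dusp6 (1.12) and Fosb (0.89). It was negative in Dbp (-4.22), Iigp1 (-2.98), Ciart (-2.35), Tns4 (-0.90) and Coq10b (-0.79). Conventional and SPF knockouts at 7 weeks differed in 49 genes.

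Among the 10092 probe sets that were not used in the gene tests, because they have several symbols or none, 17 were called between conventional knockouts and wild types at 7 weeks, 8 higher and 9 lower. The probe set without a symbol that differed most upward had 7.88, 8.19 and 7.64 in conventional knockouts, against 5.34, 5.47 and 5.87 in wild types (difference 2.34). A probe set shared by the interferon-induced GTPase genes Tgtp1 and Tgtp2, had 8.26, 7.58 and 9.78 in conventional knockouts, against 6.55, 6.47 and 6.11 in wild types (difference 2.16), with replicate 3 again the highest of the knockouts.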

How the results depend on the processing

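The 92 called genes kept their sign in the 27 fits that leave out 1 array, 25 of them kept their call in every one, and 20 were called in fewer than 14. The count of 92 genes became 763 with array weights, 43 with a minimum log2 difference of 1, 154 at an adjusted p under 0.1 and 30 to 156 leaving out 1 array. For the change between 7 and 9 weeks, 366 became 3101 with array weights, 203 with the minimum difference, 1063 at an adjusted p under 0.1, 1670 with only the arrays compared and 48 to 1353 leaving out 1 array. For the change between 7 and 12 weeks, 0 became 19 with array weights and 0 to 40 leaving out 1 array. It became 2 without the 2 wild-type arrays that stood apart (7-week replicate 1 and 12-week replicate 2, a choice made after seeing the data). The 12-week array differed by 0.946 between its 3' and 5' actin probe sets, against at most 0.716 on the other 26. Between conventional and SPF knockouts, 49 became 74 with every probe set on its own, 253 with array weights, 24 with the minimum difference, 81 with only the arrays compared and 18 to 64 leaving out 1 array. The cause of these shifts was not tested.

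With the clock score as a covariate limma's test left 0 genes called in each of these comparisons (1051 genes at an unadjusted p under 0.05 between conventional knockouts and wild types at 7 weeks, 3027 for the change to 9 weeks, 939 between conventional and SPF knockouts). Signs turned for Arntl (-0.10), Dbp (0.50), Tef (0.39), Hlf (1.09), Per3 (0.72), C730049O14Rik (-0.18), 0610005C13Rik (0.24), Mt1 (0.18) and Cd14 (-0.0175). The score is built from Arntl, Dbp, Tef, Hlf and Per3 among others, so each of these is fitted partly on itself. Their values in that fit are no measure of their own differences between the groups. For all genes the score nearly follows the 7-week groups compared, so the loss of calls was close to fixed beforehand. The clock's part in those calls was not tested.

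Groups share replicate numbers, but same-numbered 7-week arrays deviated together with correlations of 0.26, 0.04 and 0.17, so the numbers were not taken as pairs. With the replicate block 76 genes were called at 7 weeks, 200 for the change to 9 weeks and 33 between conventional and SPF knockouts. Each group holds 3 selected samples, and signals near the low end of the scale, as for Fosb, are the least certain.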

Other observations

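In conventional knockouts against wild types at 7 weeks, heat shock genes gave 0 calls by limma among 16 measured. At an unadjusted p under 0.05, 4 were higher (6.57% of all genes were), and 14 had a positive difference (median 0.21). The list's median was -0.01 in SPF knockouts against the same wild types. Genes of colonocyte transport gave 0 calls among 28, with a median of -0.14 at 7 weeks and -0.73 at 9 weeks. Smooth muscle markers had a median of -0.13 at 7 weeks and -0.61 at 9 weeks, with 0 of 16 called at 7 weeks by limma and 0 at an unadjusted p under 0.05.

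The called genes had 93 further probe sets over 52 genes. Of these, 74 differed in the same direction at 7 weeks, 50 of them at an unadjusted p under 0.05, and 1 differed in the opposite direction at that level.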
